A study of Mus musculus with 2 samples.

Results

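The cells described here are tumour neutrophils in which transcripts of Ccl3, Ccl4, Cxcl3, Hcar2 and Cd274 outnumbered those of Retnlg, Ngp, Wfdc21 and Ifitm6. A kept cell had at least 200 genes and at most 20% of its unique molecular identifiers (UMIs, each standing for 1 captured RNA molecule) from mitochondrial genes. A kept cell was a gated neutrophil when S100a8 and S100a9 together held at least 200 of every 10000 UMIs. It also had at most 1 UMI of Krt8 and Krt18, at most 1 of C1qa, C1qb and C1qc, and 0 of Cd3d, Cd3e and Cd3g. The Ccl3 and Cd274 neutrophils were the 1974 gated neutrophils, of 3939 and of 28854 kept cells, whose summed UMIs of the first 5 genes exceeded those of the other 4. The 1579 cells with the reverse difference are called opposite neutrophils, and 386 cells had equal sums. The cells were thus chosen by the UMIs of these 9 genes, of S100a8 and S100a9 and of the excluding genes. Their levels of these 9 genes, and every difference between them and the opposite neutrophils, are given as a description.

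Neutrophils are short-lived granulocytes that make most of their granule proteins in the bone marrow and then enter blood and tissue. In tissue they can switch on a second set of genes, among them chemokines, cytokines and ligands for inhibitory receptors. In mice bearing 4T1 tumours the number of neutrophils in blood, spleen and tumour is known to rise strongly. Ccl3 and Ccl4 encode chemokines that attract T cells, natural killer cells and monocytes, and Cxcl3 encodes a ligand of the neutrophil receptor Cxcr2. Hcar2 encodes a receptor for ketone bodies and nicotinic acid, and Cd274 encodes PD-L1, the ligand of the inhibitory T cell receptor PD-1. Of the opposing genes, Ngp encodes a granule protein made during maturation, and Retnlg encodes a secreted protein of the resistin family that is abundant in blood neutrophils.

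Both groups were BALB/c mice carrying tumours of 4T1, a triple-negative mouse breast cancer line. The treated group received AptCD4-LNT, an agent dosed by cell number, every 3 days at 5000000, 4000000 and then 3000000 cells, and tumours were taken at 9 days; the Untreated group received phosphate-buffered saline. Tumour tissue of 3 parallel samples was mixed into 1 droplet library of single-cell RNA per group, so there were 2 libraries in all and the mice cannot be told apart within either. With 1 library a group there is no replicate check and no test between conditions: intervals below are exact 95% intervals from counts and cover counting error only. The genes engineered or carried by AptCD4-LNT, and the meaning of its name, are not given in the sources used here.

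The AptCD4-LNT library held 687 of these cells and the Untreated library 1287. The Untreated cells were shallower, with a median of 802 UMIs and 392 genes against 1292 UMIs and 619 genes in the AptCD4-LNT library. Their median mitochondrial share was 1.46% against 0.834%. Ribosomal protein genes took 2.61% and 2.54% of their UMIs, and the nuclear RNA Malat1 took 3.07% and 3.47%. The libraries shared 42 barcodes, of which 2 AptCD4-LNT and 3 Untreated cells of this kind carried 1. Scrublet, run per library at its automatic threshold, marked 2 of the 687 and 10 of the 1287 as doublets, and none was removed.

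Genes that define neutrophils were present, although Ly6g had a UMI in only 27 of 687 AptCD4-LNT and 43 of 1287 Untreated cells. Csf3r, the receptor for granulocyte colony-stimulating factor, stood at 1095 CPM (its UMIs per 1000000 UMIs summed over the cells) in the AptCD4-LNT cells and 512 in the Untreated cells. Cxcr2 stood at 598 and 226 CPM. Markers of other cell types were low but not absent. All 10 macrophage markers had UMIs, summing to 493 and 536 CPM, against 23335 and 23149 CPM in macrophages, gated as cells with at least 10 UMIs of C1qa, C1qb and C1qc. Those 3 genes are among the 10 markers and were limited by the neutrophil gate, so part of that contrast is set by the gates. Of the 7 T cell markers Cd3d, Cd3e and Cd3g were set to 0 by the gate, and the other 4 had 1 UMI in the AptCD4-LNT cells and 0 in the Untreated cells. The B and plasma cell markers, which no gate used, had 1 and 0 UMIs. All 6 fibroblast markers had UMIs, summing to 757 and 369 CPM in the Ccl3 and Cd274 neutrophils and to 1485 and 3011 CPM in the opposite neutrophils. Erythroid markers summed to 366 and 35.9 CPM. The part of these other RNAs in the differences below was not tested.

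The promoter of Cxcl3 is shown because it was the one matched rule gene whose window held an NF-kB match. NF-kB targets and inhibitors also differed between the libraries. Of 17 measured, 11 were at least 1.5-fold higher in AptCD4-LNT cells and 1 lower, whereas Cxcl3 itself was lower. A link between the match and these differences was not tested. The RefSeq promoter table of build GRCm38.p6 covers 250 bases before to 50 after each start site and held 6 of the 9 rule genes. Capitals mark the bases covered by matches to the NF-kB consensus.
Cxcl3, chr5:90785851-90786150, plus strand: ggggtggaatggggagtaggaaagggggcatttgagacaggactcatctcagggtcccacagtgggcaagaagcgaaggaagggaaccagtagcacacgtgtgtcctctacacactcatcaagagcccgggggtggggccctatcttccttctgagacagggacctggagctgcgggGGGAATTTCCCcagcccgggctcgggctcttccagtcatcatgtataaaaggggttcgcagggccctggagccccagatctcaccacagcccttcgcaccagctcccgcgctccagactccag
The match starts 73 bases before the start site and was found on both strands in overlapping positions. The same window held the letters TATAAA, starting 30 bases before the start site, and the hypoxia element ACGTG on both strands. No NF-kB match lay in the windows of Ccl3 (chr11:83649329-83649628, minus strand) or Cd274 (chr19:29367188-29367487, plus strand). No AP-1 match (TGANTCA) or C/EBP match (TTGCNNAA) lay in any of these 3 windows, whereas Ngp and Retnlg held C/EBP matches. A match to ACGTG also lay in the windows of Cd274 and Ngp, and TATAAA in that of Ifitm6. Searched on both strands, NF-kB matches lay in 8.46% of all 32851 promoters in the table, TATAAA in 13.6%, ACGTG in 19.6%, TTGCNNAA in 10.8% and TGANTCA in 7.81%. A match describes letters in a window and shows no binding.

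The Ccl3 and Cd274 neutrophils were a smaller share of neutrophils in the AptCD4-LNT library. Of 1723 gated neutrophils in that library 687 were of this kind (39.9%, Clopper-Pearson interval 37.6 to 42.2%), as were 1287 of 2216 (58.1%, 56.0 to 60.1%) in the Untreated library, a ratio of 0.687 (0.625 to 0.754). Opposite neutrophils were 47.2% and 34.6%, and cells with equal sums 12.9% and 7.36%. All neutrophils, however, were a larger share of kept cells in the AptCD4-LNT library, at 19.5% against 11.1%. Of kept cells the Ccl3 and Cd274 neutrophils were therefore 7.76% and 6.43%, a ratio of 1.21 (1.10 to 1.32), while opposite neutrophils were 9.18% and 3.83%, a ratio of 2.40 (2.17 to 2.65). The denominator thus set the direction of the difference for the Ccl3 and Cd274 neutrophils. When each neutrophil was thinned to 1000 UMIs before the sums were compared, the shares of neutrophils were 36.5% of 1470 and 48.7% of 822 cells, with 253 and 1394 shallower neutrophils left out. Thinning to 500 UMIs, which kept every cell, gave 33.9% and 56.0%.

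The Untreated cells lay farther from the boundary of the rule. The median sum over the 5 genes was 5 UMIs in AptCD4-LNT cells and 11 in Untreated cells, although the Untreated cells were shallower. A difference of only 1 UMI chose 136 of the AptCD4-LNT cells (19.8%) and 135 of the Untreated cells (10.5%). A difference of at least 10 UMIs was held by 190 (27.7%) and 617 (47.9%). Just outside, 223 and 163 neutrophils had equal sums, 138 and 74 of them with no UMI of any of the 9 genes, and 123 and 89 fell short by 1 UMI. A UMI of only 1 of the 5 genes was seen in 31.1% of the AptCD4-LNT group and 13% of the Untreated group, and all 5 were seen in 0.873% and 10.4%. Cells with Hcar2 as the only one of the 5 were 14.4% and 4.27%. Taken cell by cell, Ccl3 had a UMI in 52.1% and 67.4% of the members and Cd274 in 35.4% and 60.9%, so the pair of genes named together was not detected in every cell at these depths.

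**Figure D1:**
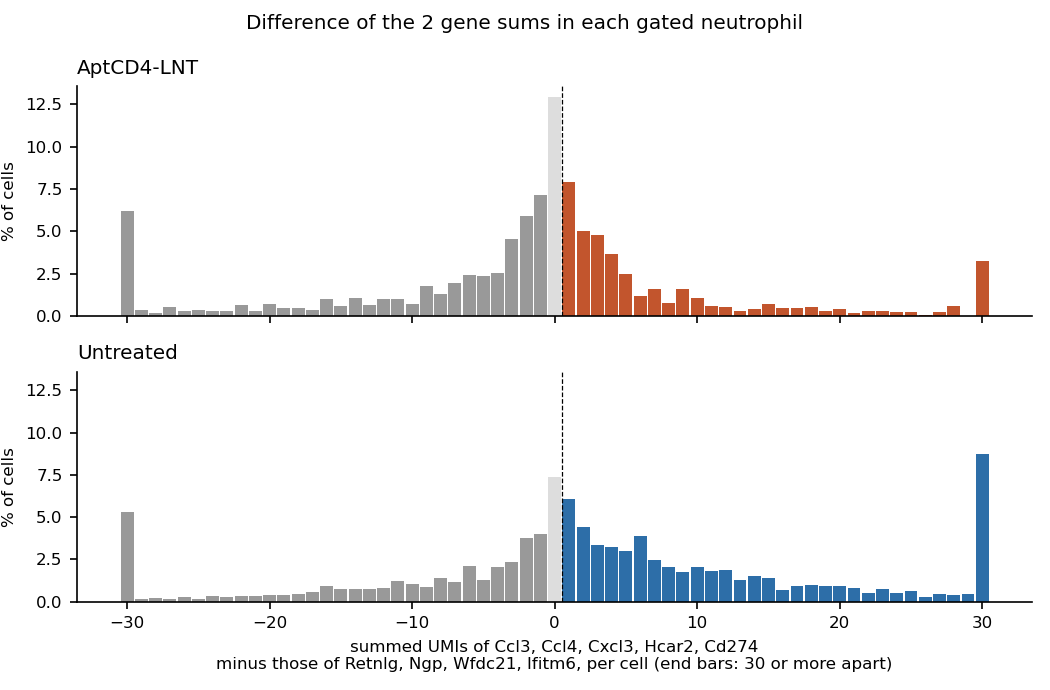
Difference between the 2 gene sums in each gated neutrophil (x axis, UMIs; end bars hold cells 30 or more apart) against the percent of gated neutrophils of that library (y axis), with coloured bars for the Ccl3 and Cd274 neutrophils, light grey for equal sums and dark grey for opposite neutrophils. In the AptCD4-LNT library the cells crowd near the dashed boundary, with 12.9% at equal sums, and 3.25% reach 30 or more, whereas 8.75% do so in the Untreated library.

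The transcripts of the 5 genes were unevenly spread over these cells. For each gene the richest 69 of the AptCD4-LNT cells held 78.0% of Ccl4 UMIs, 79.0% of Cxcl3 UMIs and 57.0% of Ccl3 UMIs. The richest 129 Untreated cells, an equal proportion, held 65.5%, 54.4% and 48.4%, all lower. Hcar2 was the most evenly spread of the 5 in the AptCD4-LNT cells, with 40.3% held by the richest 69, and 38.4% by the richest 129 in the Untreated library. For Cd274 the shares were 56.4% and 36.8%. The deepest single values were 101 and 189 Ccl4 UMIs in 1 cell.

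Each of the 5 genes was at a lower level in AptCD4-LNT cells. Ccl3 stood at 2285 CPM in the AptCD4-LNT library and 5849 CPM in the Untreated library. Ccl4 stood at 2992 and 6202 CPM, and Cxcl3 at 1153 and 4884 CPM. Hcar2 stood at 1172 and 1842 CPM, and Cd274 at 544 and 1388 CPM. Because membership needs a surplus of these transcripts, the same genes were also compared over all gated neutrophils, members or not. There the log2 ratio of AptCD4-LNT over Untreated was -1.84 (-1.90 to -1.77) for Ccl3, -1.49 (-1.55 to -1.43) for Ccl4 and -2.28 (-2.36 to -2.20) for Cxcl3. It was -0.93 (-1.02 to -0.84) for Hcar2 and -1.75 (-1.87 to -1.63) for Cd274. The 4 opposing genes were lower in AptCD4-LNT neutrophils as well, by -0.61 for Retnlg, -3.07 for Ngp, -0.29 for Wfdc21 and -0.63 for Ifitm6. Over all gated neutrophils 10.7% of 8128 genes were at least 1.5-fold lower with AptCD4-LNT. Of the 9 rule genes 8 were lower by that much, Wfdc21 being the other. The rule was chosen with earlier results of these data known, so the share over all genes is no yardstick for these 9.

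The 5 genes were not limited to neutrophils. Macrophages held Ccl4 at 1422 CPM in the AptCD4-LNT library and 1242 CPM in the Untreated library, and Ccl3 at 328 and 449 CPM. Cxcl3 in macrophages was 7.52 CPM in the AptCD4-LNT library and 284 CPM in the Untreated library. Fibroblasts, gated on collagen transcripts, served as the comparison for free RNA, although they were not uniformly low: Cxcl3 had 196 UMIs in 30 of 618 AptCD4-LNT fibroblasts and 143 UMIs in 36 of 503 Untreated ones. Whether those UMIs were free RNA was not tested. After thinning to 1000 UMIs, Ccl3 had a UMI in 46.8% of 560 cells from the AptCD4-LNT library and 73.0% of 404 from the Untreated library, against 0.507% and 2.0% of fibroblasts. Cd274 had a UMI in 27.9% and 61.9%, against 1.01% and 2.0% of fibroblasts. Ccl4 had a UMI in 31.1% and 56.2%, against 2.36% and 3.10% of fibroblasts, and Cxcl3 in 24.8% and 58.9%, against 1.52% and 2.22%. Hcar2 was nearer between libraries, at 54.6% and 64.1%, against 0.507% and 0.887% of fibroblasts. Thinning left out 127 AptCD4-LNT and 883 Untreated cells; unthinned, the shares were 52.1% and 67.4% for Ccl3 and 64.0% and 65.8% for Hcar2. Unthinned fibroblasts, with median depths of 10441 and 5342 UMIs, had a Ccl3 UMI in 3.72% and 6.76% of cells and an Hcar2 UMI in 5.02% and 4.57%.

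**Figure D2:**
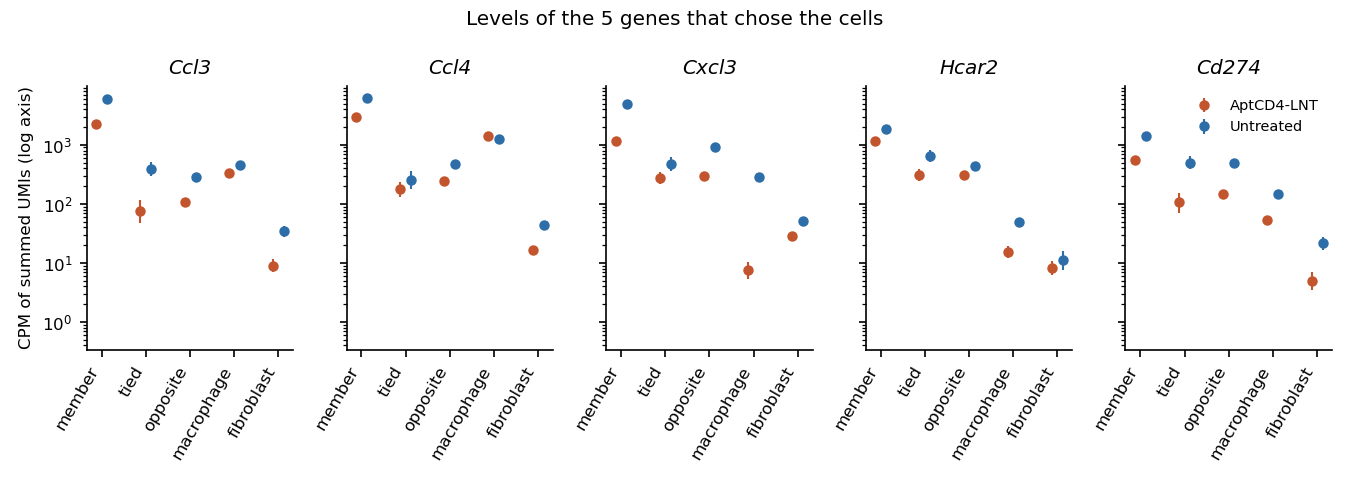
Levels of the 5 genes (y axis, CPM of summed UMIs, log axis) in Ccl3 and Cd274 neutrophils (member), neutrophils with equal sums, opposite neutrophils, macrophages and fibroblasts of each library, with bars for the exact 95% counting interval. The Untreated value lies above the AptCD4-LNT value in members for all 5 genes, and in macrophages Ccl4 lies at 1422 CPM (AptCD4-LNT) and 1242 CPM (Untreated).

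Across other genes the balance lay the opposite way. Of 6097 genes with at least 20 UMIs over the Ccl3 and Cd274 neutrophils of both libraries, 34.7% were at least 1.5-fold higher in AptCD4-LNT cells and 8.86% at least 1.5-fold lower. The median log2 ratio over these genes was 0.34, and 0.22 over the 2429 genes with at least 100 UMIs. Subtracting 0.22 from every ratio changed the counts from 2116 higher and 540 lower genes to 1480 and 856, so ratios near that value have no firm direction. Gene lists below leave out the rule genes and are described by counts past 1.5-fold and by the median, to be read against these background values. Because the cells of a library share its RNA capture and depth, genes of a list are not independent.

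Other chemokine ligands leaned lower in AptCD4-LNT cells, 3 of 10 being higher and 5 lower (median log2 ratio -0.56). Ccl6, a monocyte- and macrophage-attracting chemokine of myeloid cells, stood at 219 CPM in the AptCD4-LNT cells and 3492 CPM in the Untreated cells, a log2 ratio of -4.00 (-4.20 to -3.80). With each cell thinned to 500 UMIs, Ccl6 was detected in 7.71% of cells from the AptCD4-LNT library and 48.4% from the Untreated library. Cxcl2, a neutrophil attractant that binds Cxcr2, stood at 19371 and 31794 CPM, and Ccl9 at 39.2 and 97.8 CPM. Ccl2 was 73.2 and 154 CPM and Cxcl10, an interferon-induced T cell attractant, 70.1 and 147 CPM. Cxcl1, another Cxcr2 ligand, ran the other way at 195 and 94.6 CPM. Ccl5 stood at 52.6 and 8.15 CPM, but its 51 AptCD4-LNT UMIs came from only 2 cells, 43 of them from 1, and without that cell it was 8.29 CPM. Ligands of Cxcr2 thus differed in direction within these cells.

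Of 10 receptors that sense attractants, 5 were higher and 1 lower (median 0.58), beside a background of 34.7% and 8.86%. Cxcr2 gave a log2 ratio of 1.41 (1.20 to 1.62). Cxcr4, which holds neutrophils in the marrow and marks aged ones, stood at 395 and 137 CPM, a ratio of 1.53 (1.26 to 1.80). The formyl peptide receptors Fpr1 and Fpr2 gave 1.12 and 1.04. C5ar1, the receptor for complement C5a, gave -0.11. Of the neutrophil identity genes, 7 of 12 were higher and 0 lower (median 0.83), among them Hdc at 1644 and 772 CPM, Il1r2 at 666 and 329 CPM and Mmp9 at 399 and 177 CPM. S100a8 and S100a9, which chose the neutrophils, gave -0.39 and -0.16. In opposite neutrophils 6 of 9 measured attractant receptors were higher and 0 lower (median 1.04). Of the identity genes 7 of 12 were higher there and 1 lower (median 0.66), beside 26.1% and 13% of all genes.

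Cytokines and growth factors were divided: 3 of 12 lay higher and 5 lower (median -0.03). Csf1, the growth factor of macrophages, stood at 825 and 348 CPM, a log2 ratio of 1.25 (1.07 to 1.42), and Tnf at 97.0 and 48.9 CPM. Il1b stood at 18533 and 12380 CPM, a ratio of 0.58 that falls just short of 1.5-fold. Il1a ran the other way, at 88.7 and 431 CPM, a ratio of -2.28 (-2.63 to -1.95). Il1rn, which encodes the antagonist of interleukin-1, was also lower at 531 and 1017 CPM, and so were Osm at 448 and 708 CPM and Hbegf at 10.3 and 47.3 CPM. The interleukin-1 genes therefore did not share a direction.

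NF-kB targets and inhibitors were higher in 11 of 17 cases and lower in 1, with a median of 0.76. Tnfaip3, which encodes the feedback inhibitor A20, stood at 362 and 111 CPM, a log2 ratio of 1.71 (1.42 to 2.0). Nfkbie stood at 48.5 and 11.4 CPM, a ratio of 2.09 (1.20 to 3.06), and Icam1, an adhesion molecule, at 137 and 48.9 CPM. Zc3h12a, which encodes an RNase that degrades cytokine transcripts, was the gene that was lower, at 70.1 and 124 CPM. Immediate early and stress genes were higher in 10 of 16 cases and lower in none, with a median of 0.79. Fos stood at 3765 and 1686 CPM, Egr1 at 3811 and 1860 CPM and Nr4a1 at 359 and 62.8 CPM. Opposite neutrophils showed the same counts in this list, 10 of 16 and 0, with a median of 0.87, and 10 of 17 NF-kB genes higher with a median of 0.75. Over the opposite neutrophils 26.1% of 6134 genes were higher and 13% lower. Tissue dissociation is known to induce immediate early genes, and its part was not tested.

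Genes of glucose use and hypoxia were slightly lower, with 0 of 21 past 1.5-fold upward and 3 downward (median -0.25). Hilpda, a hypoxia-induced lipid droplet protein, stood at 2463 and 4139 CPM, a log2 ratio of -0.75 (-0.82 to -0.68). Ldha stood at 1243 and 1876 CPM and Egln3, an oxygen sensor, at 224 and 408 CPM. Among iron, lipid and oxidative stress genes, 2 of 17 were higher and 3 lower. Hmox1, the haem-degrading enzyme, stood at 764 and 2195 CPM, a ratio of -1.52 (-1.64 to -1.40), and Fth1, the ferritin heavy chain, at 40141 and 64590 CPM. In opposite neutrophils Hmox1 gave -1.13 and Hilpda -0.46.

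Genes linked to suppressive neutrophils showed no shared direction: 4 of 14 were higher and 3 lower. Ptgs2, the inducible cyclooxygenase, stood at 1414 and 585 CPM, a log2 ratio of 1.27 (1.14 to 1.41), and Nos2 at 341 and 220 CPM. Arg1 stood at 7.22 CPM in AptCD4-LNT cells against 109 CPM, from 7 and 134 UMIs. Few cells of either library held it, 6 and 39, and 31 of the 134 Untreated UMIs came from 1 cell. Wfdc17 stood at 2704 and 7221 CPM. Arg2 stood at 665 and 902 CPM and Acod1, which makes itaconate, at 1565 and 1440 CPM. Besides Cd274, the second PD-1 ligand Pdcd1lg2 was lower at 32.0 and 95.4 CPM, and Cd80 stood at 21.7 and 40.0 CPM. They were the 2 lower genes of 6 measured checkpoint and costimulatory ligands other than Cd274, of which 1, Icosl, was higher (median 0.04). Vsir, which encodes the inhibitory receptor and ligand VISTA, stood at 176 and 139 CPM.

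All 6 measured MHC class II genes were lower in AptCD4-LNT cells, with a median of -1.12, for example Cd74 at 157 and 254 CPM and H2-Ab1 at 48.5 and 119 CPM. In opposite neutrophils the median of the same 6 was -2.03. The interferon response list had 2 of 18 genes higher and 6 lower (median -0.13). Those lower were Irf1, Gbp2, Igtp, Ifi47, Socs1 and Cxcl10, which interferon-gamma induces, and Ifit1 and Ifit3 were higher. Of the 128 Ifit1 UMIs in AptCD4-LNT cells, however, 39 came from 1 cell. With the richest cell of each library left out, Ifit1 stood at 91.98 and 75.07 CPM, under 1.5-fold. Ifit3 had 37 and 13 UMIs. Socs1, a feedback inhibitor of cytokine signalling, stood at 91.8 and 384 CPM. Of 9 MHC class I and immunoproteasome genes 1 was higher, H2-K1 at 2198 and 1344 CPM, and 0 were lower (median -0.05). Genes of the NADPH oxidase and of extracellular traps were higher in 5 of 7 cases and lower in 1, with a median of 0.84, whereas in opposite neutrophils 1 of 7 was higher and 2 lower.

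Granule genes also differed between the neutrophil classes. In the Ccl3 and Cd274 neutrophils 6 of 10 lay higher and 2 lower with AptCD4-LNT (median 0.63), whereas in opposite neutrophils 1 of 12 lay higher and 8 lower (median -0.98). Lyz2, lysozyme, gave 0.69 in the former and -0.96 in the latter. Cybb gave 1.0 and -1.78. Of the 6 higher genes, Lyz2, Cybb, Ltf and Mmp8 were under 1.5-fold when the richest AptCD4-LNT cell for the gene was left out, Lyz2 at 415 against 304 CPM, Cybb at 41.0 against 29.3 CPM, Ltf at 13.4 against 9.78 CPM and Mmp8 at 269 against 184 CPM. With the richest cell of each library left out, their log2 ratios were 0.62, 0.69, 0.72 and 0.58, and Mmp8 alone of these 4 stayed under 1.5-fold. Mmp9 stayed above 1.5-fold either way, at 392 against 177 CPM in the first case. Prtn3, the other higher gene, was not checked in this way. The difference between the classes was not tested, and the opposing sum in the rule holds the granule gene Ngp.

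**Figure D3:**
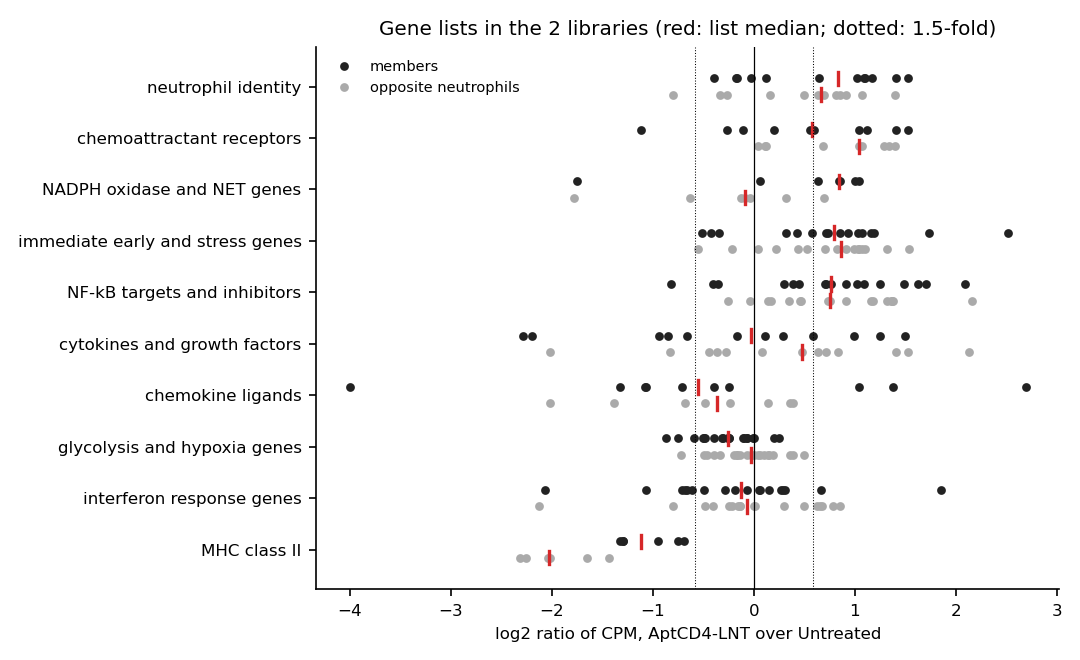
Log2 ratio of CPM, AptCD4-LNT over Untreated (x axis), for each measured gene of 10 of the 20 lists, with black points for Ccl3 and Cd274 neutrophils, grey points for opposite neutrophils, red ticks at list medians and dotted lines at 1.5-fold; rule genes are left out. Immediate early genes lie mostly to the right in both classes (medians 0.79 and 0.87) and MHC class II genes to the left (-1.12 and -2.03), while the NADPH oxidase list has medians of 0.84 and -0.09.

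The remaining lists were mixed. Adhesion genes were higher in 5 of 12 cases and lower in 2, and the 2 lower were Cd9 (1761 and 3334 CPM) and Plaur. Plaur, the urokinase receptor, stood at 260 and 1642 CPM, a log2 ratio of -2.66 (-2.85 to -2.47), and had a UMI in 10.9% and 47.3% of cells thinned to 500 UMIs. Apoptosis regulators were higher in 5 of 15 cases and lower in 2, with Bcl2l11, which encodes the death activator Bim, at 517 and 262 CPM. Of 10 endoplasmic reticulum stress genes 1 was lower, Xbp1, at 109 and 592 CPM, a ratio of -2.44 (-2.74 to -2.14), and Asns was higher on 19 and 15 UMIs. Heat shock chaperones were lower in 3 of 9 cases, Hspa1a standing at 49.5 and 103 CPM. Proliferation genes were low throughout, Top2a at 16.5 and 25.3 CPM.

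Of genes with 30 or more UMIs over both libraries and 50 CPM in the higher one, the 10 with the lowest ratio in AptCD4-LNT cells were Mmp12, Csf2ra, Car4, Ccl6, Arg1, Ccl24, F3, Plaur, Xbp1 and Tgm1. F3, the tissue factor that starts clotting, stood at 40.2 and 306 CPM. Car4, a carbonic anhydrase, had 3 and 95 UMIs. Mmp12, a macrophage elastase, had 0 and 67 UMIs, at least 17.6-fold lower with a floor of 3 counts. Csf2ra, the alpha chain of the GM-CSF receptor, had 0 and 215 UMIs, at least 56.6-fold lower with the same floor. Csf2ra, however, had 0 UMIs among all 98968100 of the AptCD4-LNT library and 3020 in the Untreated library, in every cell type together. It was the only gene at 0 in 1 library with more than 300 UMIs in the other, so its absence was not particular to neutrophils.

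The 10 genes with the highest ratio were Il16, Hbb-bs, Hba-a2, Fam122a, Sparcl1, Ubash3b, Kcnj2, Hba-a1, Ccl5 and Pik3cd, and single cells held 5 of them. One AptCD4-LNT cell held 175 of 201 Hbb-bs UMIs (87.1%), and without the richest cell Hbb-bs stood at 26.9 CPM. Likewise 57 of 60 Hba-a1, 54 of 57 Hba-a2 and 51 of 53 Sparcl1 UMIs came from 1 cell each. The others were spread over many cells. Il16, the precursor of a CD4-binding attractant, had 60 UMIs in 56 AptCD4-LNT cells and 6 UMIs in 6 Untreated cells, a log2 ratio of 3.66 (2.46 to 5.16). Pik3cd, a leukocyte PI3-kinase subunit, had 64 UMIs in 60 cells and 13 in 13, Kcnj2, a potassium channel, 67 in 52 and 12 in 12. Fam122a had 51 in 49 and 7 in 6, and Ubash3b, a phosphatase, 50 in 44 and 8 in 8.

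Levels were then followed within the Ccl3 and Cd274 neutrophils, from cells with a difference of the sums of 1 to 2 UMIs through 3 to 9 to 10 or more. The AptCD4-LNT library had 222, 275 and 190 cells in these bands, with median depths of 1232.5, 1255 and 1419.5 UMIs. The Untreated library had 233, 437 and 617 cells, with median depths of 714, 731 and 894 UMIs, so the bands also differ in depth. Hilpda was higher in the farther bands in both libraries, at 1744, 2320 and 3301 CPM in AptCD4-LNT cells and 2893, 3924 and 4607 CPM in Untreated cells. Cxcr2 was lower, at 722, 577 and 509 CPM and at 357, 254 and 173 CPM. Ccl6 stood at 1710, 2344 and 4626 CPM in Untreated cells and at 199, 223 and 232 CPM in AptCD4-LNT cells. Csf1 differed little across the bands, at 872, 814 and 796 CPM and at 384, 376 and 323 CPM, with overlapping intervals within each library. The AptCD4-LNT value of Csf1 and the Untreated value of Ccl6 were the higher ones in every band.

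**Figure D4:**
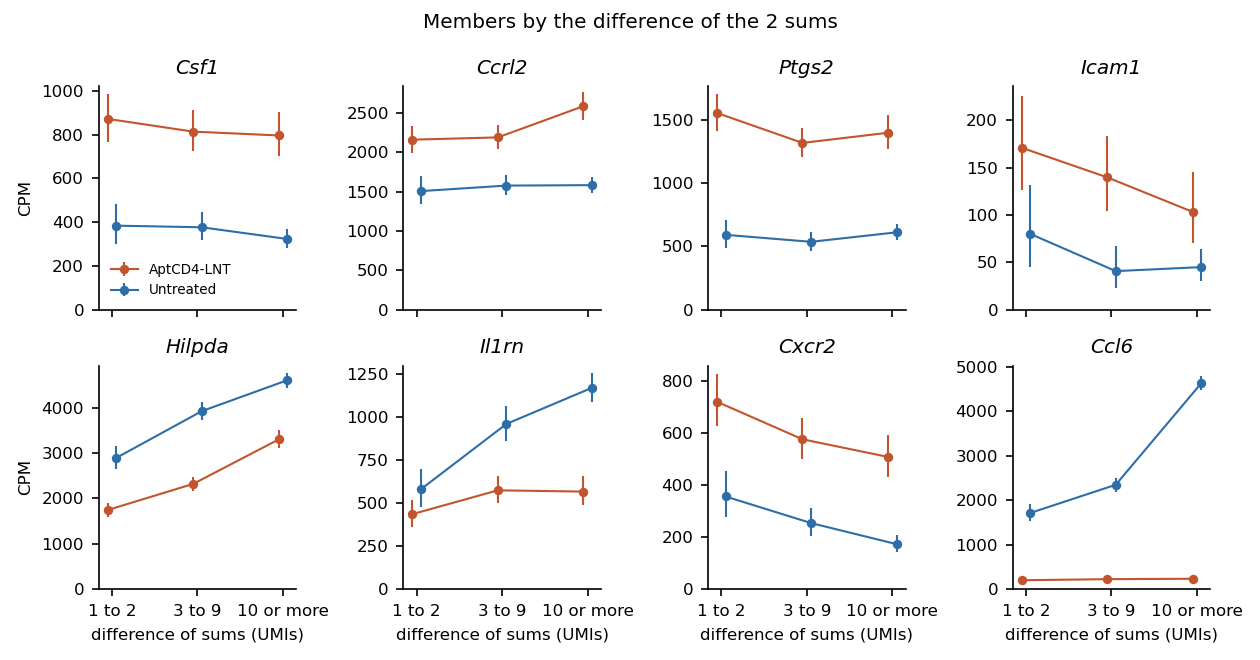
CPM (y axis, from 0) of 8 genes in Ccl3 and Cd274 neutrophils of each library, by the difference between the 2 gene sums (x axis, UMIs), with bars for the exact 95% counting interval. Csf1, Ccrl2, Ptgs2 and Icam1 lie higher in AptCD4-LNT cells in all 3 bands, Hilpda is higher in farther bands in both libraries, and Ccl6 reaches 4626 CPM in Untreated cells and 232 CPM in AptCD4-LNT cells.

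Against the opposite neutrophils, the Ccl3 and Cd274 neutrophils had higher levels of Il1rn, Csf1, Ccrl2, Ddit3 and Hmox1 and lower levels of Lcn2, Mmp8 and Ly6g in both libraries. In the AptCD4-LNT library 26.5% of 6345 genes were at least 1.5-fold higher and 8.7% lower in them, and in the Untreated library 22.4% of 5829 genes were higher and 17.1% lower. Centred on the median gene the counts were 1127 higher and 837 lower in the AptCD4-LNT library, and 941 and 1310 in the Untreated library. Cytokines and growth factors were higher in 5 of 13 cases in the AptCD4-LNT library and 9 of 12 in the Untreated library, and lower in none, with medians of 0.23 and 1.09. Il1b, an abundant transcript in both classes, gave log2 ratios of 0.10 and 0.24. Il1rn stood at 531 CPM against 218 CPM in AptCD4-LNT opposite neutrophils, and at 1017 against 297 CPM in the Untreated library. Csf1 stood at 825 against 430 CPM and at 348 against 150 CPM. Ccrl2, a chemerin-binding receptor, stood at 2310 against 979 CPM and at 1570 against 401 CPM.

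Endoplasmic reticulum stress genes were higher in 5 of 10 and 7 of 10 cases, and apoptosis regulators in 8 of 15 in each library. Ddit3, the stress factor CHOP, stood at 261 against 120 CPM and at 223 against 72.4 CPM, and Pmaip1, which encodes Noxa, at 165 against 45.6 CPM and 78.3 against 51.6 CPM. Iron, lipid and oxidative stress genes were higher in 7 of 17 and 9 of 17 cases, including Hmox1 at 764 against 417 CPM and 2195 against 916 CPM. Glycolysis and hypoxia genes were higher in 4 of 21 and 7 of 21 cases, beside 26.5% and 22.4% of all genes, with Hilpda at 2463 against 1185 CPM and 4139 against 1631 CPM. Cxcl2 stood at 19371 against 13836 CPM in the AptCD4-LNT library and 31794 against 12572 CPM in the Untreated library. Pdcd1lg2 was higher in both, at 32.0 against 10.4 CPM and 95.4 against 23.8 CPM.

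Granule genes were lower in 6 of 11 cases in the AptCD4-LNT library and 10 of 11 in the Untreated library. Lcn2, lipocalin 2, stood at 597 against 2309 CPM and at 968 against 4579 CPM, and Mmp8, the neutrophil collagenase, at 279 against 829 CPM and 184 against 569 CPM. Ly6g, the surface antigen used to sort mouse neutrophils, stood at 44.4 against 155 CPM and 40.8 against 269 CPM. Camp, the cathelicidin precursor, had 1 UMI in the Ccl3 and Cd274 neutrophils of each library and stood at 35.2 and 721 CPM in the opposite neutrophils. Ltf, lactoferrin, stood at 15.5 against 17.3 CPM in the AptCD4-LNT library and 9.78 against 280 CPM in the Untreated library. Of the 12 neutrophil identity genes 1 was higher and 4 lower in the AptCD4-LNT library, and 2 and 5 in the Untreated library. Of all genes 8.7% and 17.1% were lower. Among the lower ones, S100a8 stood at 22885 against 52175 CPM and 30078 against 65899 CPM.

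Genes outside the rule were also ranked where they had at least 50 CPM in the higher class of each library. Of these, the 10 with the highest ratios in both libraries were Ciart, Slc38a1, Ifrd1, Fnip2, Ninj1, Cystm1, Tgif1, Pip4p1, Gadd45b and Cstb. Ciart, a repressor of the circadian clock, stood at 58.8 against 12.4 CPM and 93.7 against 18.8 CPM, and Ifrd1 at 530 against 166 CPM and 1002 against 239 CPM. Slc38a1, an amino acid transporter, stood at 168 against 42.2 CPM and 87.2 against 21.8 CPM. Gadd45b, a stress-induced gene, gave log2 ratios of 1.59 and 1.68, and Cstb, the protease inhibitor cystatin B, 1.58 and 1.55. Among the genes of this ranking with the lowest ratios in both libraries were Mfap5, Lcn2, Ly6g, Hacd4, Tnc, Mmp8, Stfa3, Timp1 and Sparc. Mfap5, Tnc, Timp1 and Sparc are genes of fibroblasts and matrix, whose summed markers were higher in opposite neutrophils, and Mfap5, Tnc and Timp1 turned direction in the AptCD4-LNT library when cells with a macrophage marker UMI were left out, at 0.97, 0.40 and 0.66.

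**Figure D5:**
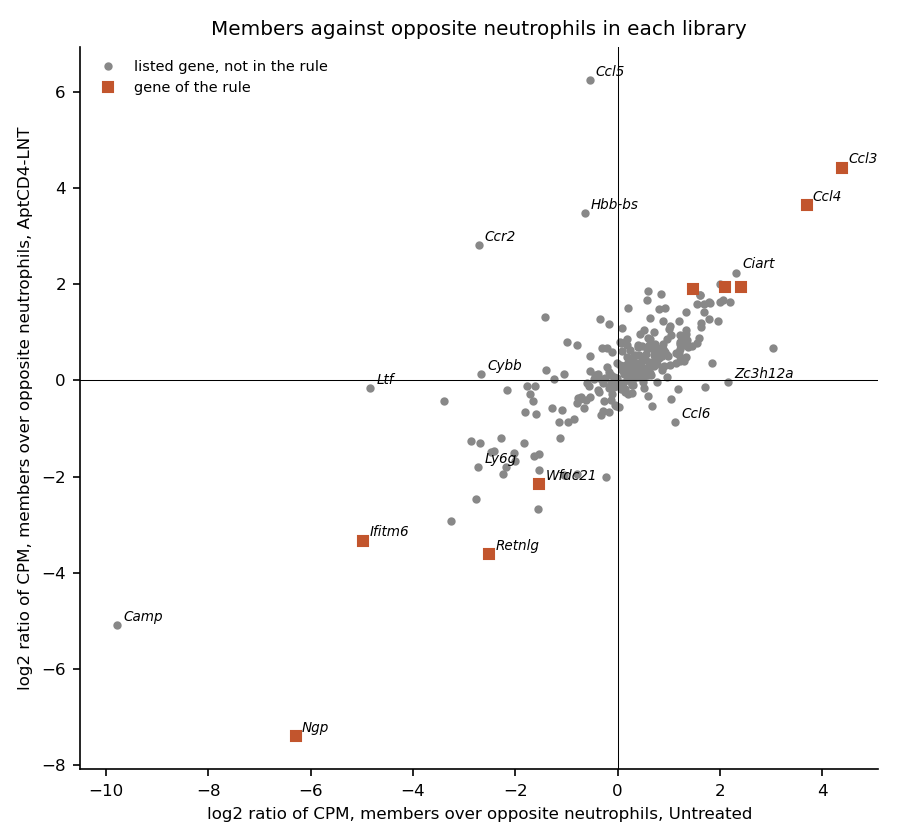
Log2 ratio of CPM, Ccl3 and Cd274 neutrophils over opposite neutrophils, in the Untreated library (x axis) and the AptCD4-LNT library (y axis), for genes of the lists (grey points) and of the rule (red squares, whose position the rule sets). Ccl6 lies right of 0 at 1.12 and below 0 at -0.86, and Camp lies lowest among the grey points at -9.79 and -5.09.

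Ccl6 changed side between the libraries. It stood at 219 CPM in the Ccl3 and Cd274 neutrophils against 397 CPM in the opposite neutrophils of the AptCD4-LNT library, and at 3492 against 1608 CPM in the Untreated library. The log2 ratios were -0.86 (-1.09 to -0.63) and 1.12 (1.04 to 1.20), and their difference was not tested beyond these counting intervals. Wfdc17 lay lower in the Ccl3 and Cd274 neutrophils of both libraries, at 2704 against 10556 CPM and 7221 against 14879 CPM. Plaur stood at 260 against 327 CPM in the AptCD4-LNT library and 1642 against 1080 CPM in the Untreated library, and Xbp1 at 109 against 158 CPM and 592 against 372 CPM. These 3 genes, Ccl6, Plaur and Xbp1, had lower AptCD4-LNT than Untreated levels in both neutrophil classes.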

How the data were processed

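The deposited matrices hold raw counts, that is UMI counts per gene and barcode, made by the authors with Cell Ranger 7.2.0 on GRCm39 per the submitters' processing notes; the gene annotation release is not given in the sources used here. Each covers 55357 genes; the libraries hold 98968100 UMIs in 8931 barcodes (AptCD4-LNT) and 131295224 in 20040 (Untreated). The smallest barcode held 500 UMIs, so emptier droplets are not analysed here.

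Cells were chosen by the rule given in the report; members and gene lists were chosen with earlier results of these data known. UMIs were summed per class and library and scaled to CPM. Genes with 20 or more UMIs over the sums compared were described, past 1.5-fold being counted. Ratios have exact conditional binomial 95% intervals and shares Clopper-Pearson intervals; PCR and droplet capture add error they do not cover. Ddit3 and Aldoa occupy more than 1 row, and the row with most UMIs was used. Doublets were called with Scrublet in scanpy 1.11.5 and kept. Thinning drew UMIs without replacement.

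Genes named were the rule genes, those of each list with the highest CPM or largest ratio, and the 10 largest ratios in each direction outside the rule, unnamed gene models, mitochondrial and ribosomal genes. In members against opposite neutrophils that ranking used the smaller of both libraries' ratios. It was limited to genes with at least 50 CPM in the higher class of each library. One gene that this rule names is not reported here. Python 3.11.15, numpy 2.4.6, scipy 1.17.1 and pandas 2.3.3 were used, and the interval code was tested on simulated data. Other gates, filters, scalings and member rules were tried.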

Additional observations from a re-analysis of the deposited data

Results flagged for a closer look

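Members here are the Ccl3 and Cd274 neutrophils. For 6 named genes the ratio of members over opposite neutrophils was at least 1.5-fold in both libraries but of opposite sign, and the difference was not tested. Ccl6 gave a log2 ratio of -0.86 in the AptCD4-LNT library and 1.12 in the Untreated library. Ccr2, the receptor that brings monocytes into tissue, gave 2.81 and -2.72, on 33 UMIs in 10 AptCD4-LNT members and 5 UMIs in 5 Untreated members. F13a1, a monocyte gene, gave 1.31 and -1.42, on 15 and 10 UMIs. The 6 monocyte markers summed to 342 CPM in AptCD4-LNT members and 261 CPM in opposite neutrophils, and to 273 and 385 CPM in the Untreated library; their part in these ratios was not tested. Hbb-bs, a haemoglobin chain, gave 3.47 and -0.65, and 175 of its 201 UMIs in AptCD4-LNT members came from 1 cell. Nr4a1, an immediate early nuclear receptor, gave 0.74 and -0.78, on 348 and 77 UMIs in members. Ubash3b gave 0.80 and -0.98, on 50 and 8 UMIs.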

How the results depend on the processing

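With 1 library a group, no replicate could be left out. No paired analysis was possible because each group has 1 library. The share of neutrophils that were members stayed lower in the AptCD4-LNT library under every alternative run; the ratio was 0.810 when kept cells needed 500 genes and a mitochondrial share within 10%, 0.775 with at least 1000 UMIs, 0.567 where the sums had to differ by at least 3, and 0.606 after thinning to 500 UMIs, chosen after seeing the data. Counts depended on the settings. From 2116 higher and 540 lower genes in AptCD4-LNT members, and 1684 and 1303 higher than in opposite neutrophils (AptCD4-LNT, Untreated), they became 631, 198, 493 and 485 for genes with at least 100 UMIs, 6220, 3763, 5303 and 5200 for any UMI, and 1070, 207, 631 and 543 at 2-fold. Centring on the median gene gave 1480 higher and 856 lower.

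Of 338 named values past 1.5-fold, run under up to 16 alternatives (5063 values), 5047 kept their direction and 16 turned. Of the 5063 values 4744 stayed past 1.5-fold. The cause of the turns was not tested. In members over opposite neutrophils of the AptCD4-LNT library, Timp1 gave 0.51 and Tnc 0.77 with a gate of 400 per 10000 UMIs, Mfap5 0.97, Timp1 0.66 and Tnc 0.40 without cells holding a macrophage marker, and Timp1 0.34 and Tnc 0.0048 with cells weighted equally. F13a1 gave -0.18 and Sparcl1 -4.02 without Ccl3 in the rule, and Cxcl16 -0.44 without Cd274. In the Untreated library Hbb-bs gave 2.20 after thinning to 500 UMIs. In AptCD4-LNT over Untreated members, Ciart gave 0.53 and F13a1 -0.51 when cells needed 500 genes, and 0.19 and -0.11, with Ifitm6 at -0.29, after thinning to 1000 UMIs. The log2 ratio of the share of members with a Ly6g UMI turned to 0.12 at 500 UMIs and 0.23 unthinned. Median depths of 1292 and 802 UMIs limit genes of low level to sums over cells.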
